A study of Mus musculus with 40 samples.

Results

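The 10 genes described here are 3 neurofilament chains (Nefh, Nefm and Nefl) and 7 genes used to recognise retinal ganglion cells (Rbpms, Pou4f1, Pou4f2, Isl2, Slc17a6, Sncg and Thy1). They were taken by symbol from a table of 42037 gene symbols, and all 10 passed the filter on low counts that left 23495 genes for testing. Ganglion cells are the output neurons of the retina, and their axons form the nerve fibre layer and the optic nerve. Neurofilaments are the intermediate filaments that fill large axons: the light chain, Nefl, builds the core, the medium and heavy chains, Nefm and Nefh, carry the long side arms, and heavy chain is most abundant in large, mature axons. In the mouse retina horizontal cells also hold neurofilament protein, so these 3 genes are not markers of ganglion cells alone.

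The libraries came from a mouse model of oxygen-induced retinopathy (OIR), in which newborn pups breathe excess oxygen, retinal capillaries are lost, and after return to room air the hypoxic retina grows new, disorganised vessels. C57BL/6J pups were kept in 75% oxygen from postnatal day 7 to 12 (P7 to P12). At P14 each OIR eye received 1 µl into the vitreous of the anti-VEGFA antibody B20.4.1 (0.2 µg/µl), the anti-ANG2 antibody LC10 (0.2 µg/µl), B20.4.1_LC10, a bispecific antibody against both, or IgG (each of these at 0.4 µg/µl), so both single antibodies were given at a lower concentration than the IgG they are set against. The control retinas are labelled nOIR and came from mice outside the OIR groups, and the labels used here do not say whether those eyes were injected. Whole retinas were collected at P17 and P19, 4 per group and 40 in all, with 1 retina per library. The labels call the 4 samples of a group independent. They do not say which retinas share a mouse or a litter, so p-values measure the spread between these retinas.

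Library totals ran from 9155091 to 25835055 expected counts. In the 3 libraries farthest from the rest in composition (control P17 replicate 3, anti-ANG2 P19 replicate 1 and bispecific P19 replicate 3) the TMM scaling factor was under 0.8 or over 1.2. A further 8 libraries held both Xist (over 10 CPM) and Y-linked RNA (over 5 CPM): control P17 replicates 2 and 4, IgG P17 replicate 3, bispecific P17 replicate 3, control P19 replicate 3, anti-VEGFA P19 replicates 3 and 4, and anti-ANG2 P19 replicate 3. Y-linked RNA was over 100 CPM in 4 of 4 IgG, 0 of 4 bispecific and 2 of 4 control retinas at P19. At P17 it was so in 4 of 4 anti-VEGFA and 0 of 4 anti-ANG2 retinas, and in every other group in 2 of 4. For the bispecific antibody over IgG at P19 this difference cannot be told apart from the antibody. The same holds for anti-VEGFA over anti-ANG2 at P17. Each call among the 10 genes is given with and without both sets of libraries, and calls in other lists are counted so. Without the 8 libraries 0.0441% of all genes were called with anti-VEGFA, 5.76% with anti-ANG2 and 0.253% with IgG over control at P19, against 4.73%, 10.7% and 0.919% with all libraries. Levels are given in TPM (scaled for gene length and library) and in CPM (counts over the library total, with TMM scaling). A gene is called changed where edgeR's quasi-likelihood test gave a Benjamini-Hochberg adjusted p under 0.05 over all 23495 genes. The scales differ between groups: in IgG-injected OIR over control retinas the median of all genes was -0.05 (log2) at either age in edgeR, against -0.22 at P17 and -0.15 at P19 in TPM.

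In control retinas the genes differed widely in level. In TPM, Sncg was highest, at 979.6 ± 113 at P17 and 1051 ± 134 at P19 (SD, n = 4 each), followed by Nefl at 517 ± 119.8 and 806 ± 87.2 TPM at the same ages. Nefm, Nefh and Rbpms came next, at 138 ± 20.8, 103 ± 18.99 and 40.6 ± 4.69 TPM at P19. Nefm and Nefh overlapped between retinas, and so did Slc17a6, at 31.1 ± 6.31, and Thy1, at 22.96 ± 2.60 TPM. The transcription factors were lowest, with Isl2 at 9.10 ± 2.59, overlapping Pou4f1 at 7.003 ± 0.439 and Pou4f2 at 2.53 ± 0.790 TPM. All 10 genes were detected in every library, and Pou4f2 was the least precisely measured, with 13 to 178 expected counts per library.

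Nefh lies on chromosome 11 (4938754 to 4948064, minus strand, GRCm38). Nefl and Nefm are neighbours on chromosome 14, at 68083863 to 68089095 on the plus strand and 68082590 to 68124846 on the minus strand. In GENCODE vM21 exons of the longer Nefm transcript overlap Nefl on the opposite strand over 1108 bases, which is 32.8% of the exonic bases of Nefl and 19.2% of those of Nefm. The labels do not mention strand, so reads in that overlap cannot be assigned to one gene for certain. Nefh has no such overlap.

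Nefh was lower in OIR than in control retinas at both ages in TPM. At P17 its TPM were 55.00, 53.2, 45.3 and 56.5 with anti-VEGFA, 48.5, 49.3, 52.1 and 50 with anti-ANG2, 49.01, 51.2, 55.00 and 49.7 with the bispecific antibody and 58.5, 43.97, 39.4 and 40.7 with IgG, against 75.6, 102, 106 and 65.1 in control retinas. At P19 they were 51.1, 37.7, 40.8 and 28.2 with anti-VEGFA, 33.2, 47.4, 28.6 and 50.96 with anti-ANG2, 64.5, 69.3, 43.8 and 25.7 with the bispecific antibody and 35.6, 47.05, 45.9 and 65.95 with IgG, against 94.9, 114, 122 and 79.7 in control retinas. At either age every one of the 16 OIR retinas lay below every one of the 4 control retinas. In CPM the gap was smaller, with 14 of 16 OIR retinas below the lowest control retina at P17 and 15 of 16 at P19. Fewer ganglion cells and less RNA of a gene per cell cannot be told apart in whole retina.

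The medium and light chains were compared with control in the same way. Nefm TPM at P17 were 89.8, 71.7, 48.2 and 92.5 with anti-VEGFA, 67.7, 78.7, 71.6 and 69.5 with anti-ANG2, 86.5, 73.8, 87.5 and 74.97 with the bispecific antibody and 88.98, 66.3, 63.98 and 76.9 with IgG, against 106, 130.1, 135 and 93.9 in control retinas. All 16 OIR retinas were below the 4 control retinas at P17, narrowly, and 15 of 16 at P19, when the OIR range was 32.9 to 121.9 TPM and the control range 114 to 156 TPM. Nefl TPM at P19 were 478, 376, 289 and 254 with anti-VEGFA, 277, 417, 269.7 and 368 with anti-ANG2, 510.3, 551, 299 and 291 with the bispecific antibody and 303, 439, 359 and 656 with IgG, against 771, 877, 878 and 699 in control retinas. All 16 OIR retinas were below the control retinas at P19, in CPM as well as in TPM, whereas at P17 only 2 of 16 were, with 293 to 525 TPM in OIR and 396 to 657 TPM in control retinas. Of all genes tested, 0.962% at P17 and 1.18% at P19 had all 16 OIR retinas below all 4 control retinas in TPM, and 0.14% and 0.481% had so in CPM. Of the 10 ganglion cell genes, Nefh and Nefm had so in TPM at P17, Nefh and Nefl in TPM at P19, and Nefl in CPM at P19.

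**Figure D1:**
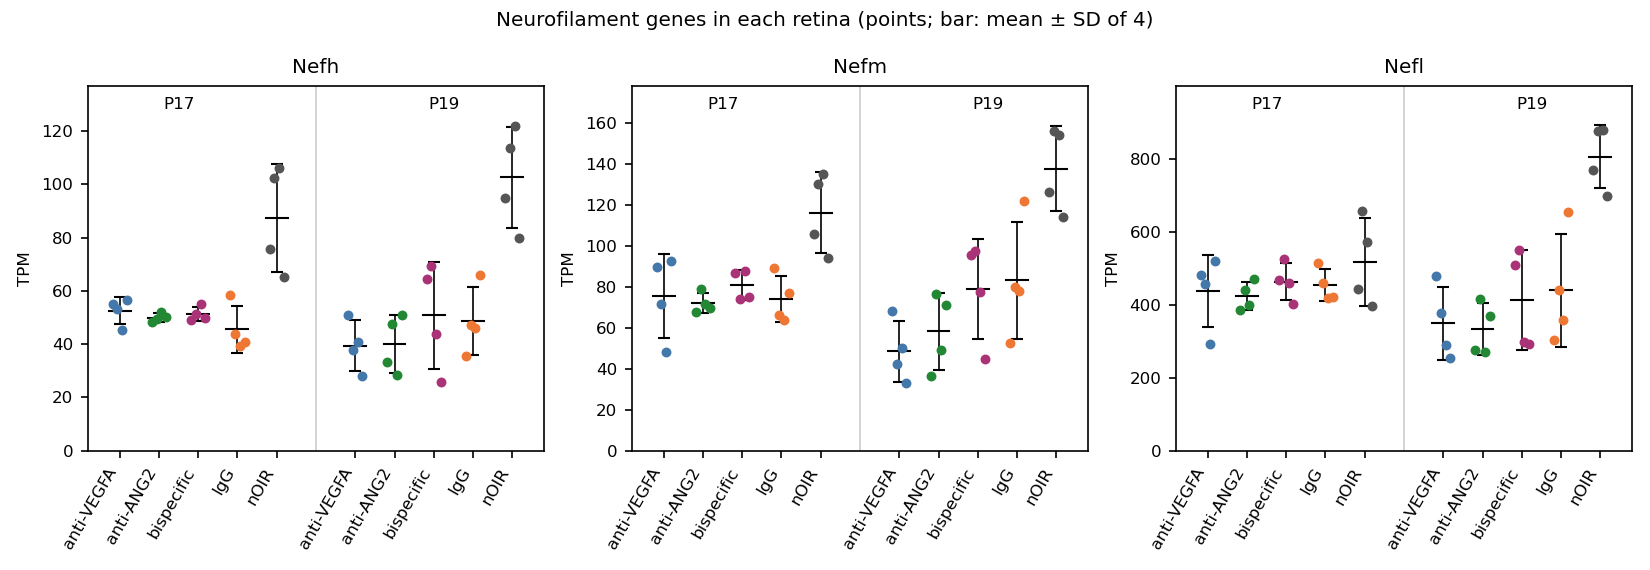
Each point is 1 retina, with TPM on a linear axis from 0, groups along the other axis at P17 and then P19, and the mean and SD of 4 retinas as bars. Nefh lies at 39.4 to 58.5 TPM in OIR and 65.1 to 106 TPM in control retinas at P17, and Nefl at 254 to 656 TPM in OIR and 699 to 878 TPM in control retinas at P19.

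In edgeR, with IgG-injected OIR set against control retinas, 0 of the 10 genes were called at P17, where 2.36% of all genes were, and 3 of the 10 had an unadjusted p under 0.05. Nefh had the lowest adjusted p, with a log2 change of -0.60 ± 0.21 (SE; adjusted p = 0.13). It was called by DESeq2 (adjusted p = 0.032), in a fit of these groups only (0.039) and on log2(TPM + 1) with limma-trend (0.021). Of 13 alternative fits other than those without 1 library, 4 called it, and the adjusted p reached 0.49 in the rest. Of the 8 fits without 1 library, 0 called it (adjusted p of 0.11 to 0.33). DESeq2 called 1062 of all genes here, against 555 in edgeR. The median log2 change of the 10 genes was 0.14, against -0.05 over all genes. At P19, Nefh fell to 148 ± 19.3 CPM with IgG, against 275 ± 61.3 CPM in control retinas, a log2 change of -0.90 ± 0.21 (SE; adjusted p = 0.025). It was the only one of the 10 called, where 0.919% of all genes were called and 0.0979% were called lower. Nefl, at -0.70 ± 0.22 (SE; adjusted p = 0.11), and Nefm, at -0.56 ± 0.22 (SE; adjusted p = 0.25), were not called, though Nefl was in a DESeq2 fit (adjusted p = 0.017). The median of the 10 genes at P19 was -0.32, against -0.05 over all genes.

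Leaving out any one of control replicates 1, 2 and 3 or of IgG replicates 1, 2 and 3 ended the Nefh call at P19 (adjusted p between 0.05 and 0.15), as did adding Y-linked RNA as a covariate (log2 change -0.90, as in the fit without it, adjusted p = 0.053) or leaving out the 8 libraries with both Xist and Y-linked RNA (log2 change -0.78, adjusted p = 0.13). Without the 3 libraries of unusual composition its adjusted p was 0.009. The change between P17 and P19 was tested as a difference of differences. For IgG-injected OIR over control retinas, P19 minus P17, 0 of the 10 genes passed, where 0.00426% of all genes did, although all 10 differences were below 0 (9 of 10 in TPM, with Thy1 at 0.10). The 3 with an unadjusted p under 0.05 were Nefl, at -0.85 ± 0.31 (SE; adjusted p = 0.7), Pou4f1, at -0.73 ± 0.32 (SE; adjusted p = 0.81), and Slc17a6, at -0.94 ± 0.36 (SE; adjusted p = 0.76).

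The antibody-injected OIR retinas were also set against the same control retinas, so these comparisons share their controls with one another and with the IgG comparison. At P17, 0 of the 10 genes were called with anti-VEGFA, anti-ANG2 or the bispecific antibody, where 0.643%, 0.953% and 0.834% of all genes were, and 1, 3 and 3 of the 10 had an unadjusted p under 0.05. DESeq2 called 0 of the 10 in each. Nefh had log2 changes of -0.49 ± 0.21 (SE; adjusted p = 0.38) with anti-VEGFA, -0.58 ± 0.21 (SE; adjusted p = 0.27) with anti-ANG2 and -0.49 ± 0.21 (SE; adjusted p = 0.37) with the bispecific antibody. At P19 the anti-VEGFA group had 3 of 10 called, all neurofilaments and all lower, where 4.73% of all genes were called and 2.39% were called lower. Nefm had the largest change, with 121 ± 39.3 CPM with anti-VEGFA and 292 ± 55.9 CPM in control retinas, a log2 change of -1.27 ± 0.23 (SE; adjusted p = 0.0012). Nefh changed by -1.15 ± 0.21 (SE; adjusted p = 0.0018) and Nefl by -0.99 ± 0.22 (SE; adjusted p = 0.0067) on the log2 scale. For Nefl, Nefm and Nefh alike the 4 anti-VEGFA retinas lay below the 4 control retinas in both units. How many of all genes separate so with 4 against 4 retinas is not given here. These 3 calls held without any 1 library, and all 3 were lost without the 8 libraries with both Xist and Y-linked RNA, 2 of which are anti-VEGFA retinas, at log2 changes of -1.14 for Nefm, -1.01 for Nefh and -0.77 for Nefl (adjusted p of 0.27, 0.27 and 0.61). Without the 3 libraries of unusual composition the adjusted p was 0.00045 for Nefm, 0.00053 for Nefh and 0.0013 for Nefl. With the mitochondrial share as a covariate the Nefl change was -0.84 and was not called (adjusted p = 0.14). The median log2 change of the 10 genes was -0.70, against 0.02 over all genes.

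With anti-ANG2 at P19, 5 of the 10 genes were called, 4 lower and 1 higher, where 10.7% of all genes were called, 3.65% lower and 7.06% higher. The 4 lower genes were Isl2, at -1.39 ± 0.32 (SE; adjusted p = 0.0025), Nefh, at -0.80 ± 0.21 (SE; adjusted p = 0.0089), Nefl, at -0.70 ± 0.22 (SE; adjusted p = 0.029), and Nefm, at -0.70 ± 0.22 (SE; adjusted p = 0.035). Sncg was higher, at 0.74 ± 0.22 (SE; adjusted p = 0.021). The share of counts from the mitochondrial genome was 1.01 to 1.86% in these anti-ANG2 retinas, against 0.618 to 0.704% in the control retinas, and the summed rod markers ran from 59321 to 82894 CPM with anti-ANG2, against 47114 to 53413 CPM in control retinas. With the mitochondrial share as a covariate none of the 5 was called, with log2 changes of -1.51 for Isl2, -0.63 for Nefh, -0.48 for Nefl, -0.44 for Nefm and 0.16 for Sncg (adjusted p of 0.057, 0.33, 0.55, 0.6 and 0.88), and 0.766% of all genes were called in that fit. The Nefl and Nefm calls were each lost without control replicate 2 or 3 or anti-ANG2 replicate 1, 3 or 4 (adjusted p of 0.061 to 0.12 and 0.054 to 0.14), and the Nefh call without anti-ANG2 replicate 3 (0.059). Without the 8 libraries with both Xist and Y-linked RNA Nefl, Nefm and Nefh each changed by -0.55 (adjusted p of 0.25, 0.28 and 0.2). Without the 3 libraries of unusual composition the changes were -0.74 for Nefl, -0.61 for Nefm and -0.84 for Nefh (adjusted p of 0.019, 0.11 and 0.011). On log2(TPM + 1), 7 of the 10 genes were called with anti-ANG2, all lower (Nefl, Nefm, Nefh, Isl2, Slc17a6, Pou4f1 and Pou4f2), where 27.1% of all genes were called. In that fit Pou4f1 was at -0.66 (adjusted p = 0.014), Pou4f2 at -0.93 (0.037), and Sncg was not called. The median log2 change of the 10 genes was -0.70, against -0.06 over all genes.

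With the bispecific antibody at P19, 0 of the 10 genes were called, where 0.443% of all genes were, and 4 had an unadjusted p under 0.05. The neurofilament log2 changes were -0.84 ± 0.21 (SE; adjusted p = 0.056) for Nefh, -0.76 ± 0.22 (SE; adjusted p = 0.11) for Nefl and -0.64 ± 0.22 (SE; adjusted p = 0.22) for Nefm. Nefh was called without control replicate 4 (adjusted p = 0.049) or without bispecific replicate 1 (0.032) or 2 (0.014), and by DESeq2 (0.0061). Those 2 bispecific retinas had the highest Nefh of their group, so leaving either out favours a call. The other 5 of 8 fits without 1 library did not call it (adjusted p of 0.09 to 0.36). Of 13 further alternative fits 7 called it, with an adjusted p of up to 0.27 in the rest. In TPM all 4 bispecific retinas lay below all 4 control retinas for Nefh, Nefm and Nefl at P19. In CPM Nefl did so as well, while Nefh and Nefm overlapped. The share of all genes that separate so with 4 against 4 retinas is not given here. The median log2 change of the 10 genes was -0.40, against 0.04 over all genes. The 4 retinas varied widely among themselves, with Nefh at 64.5, 69.3, 43.8 and 25.7 TPM.

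**Figure D2:**
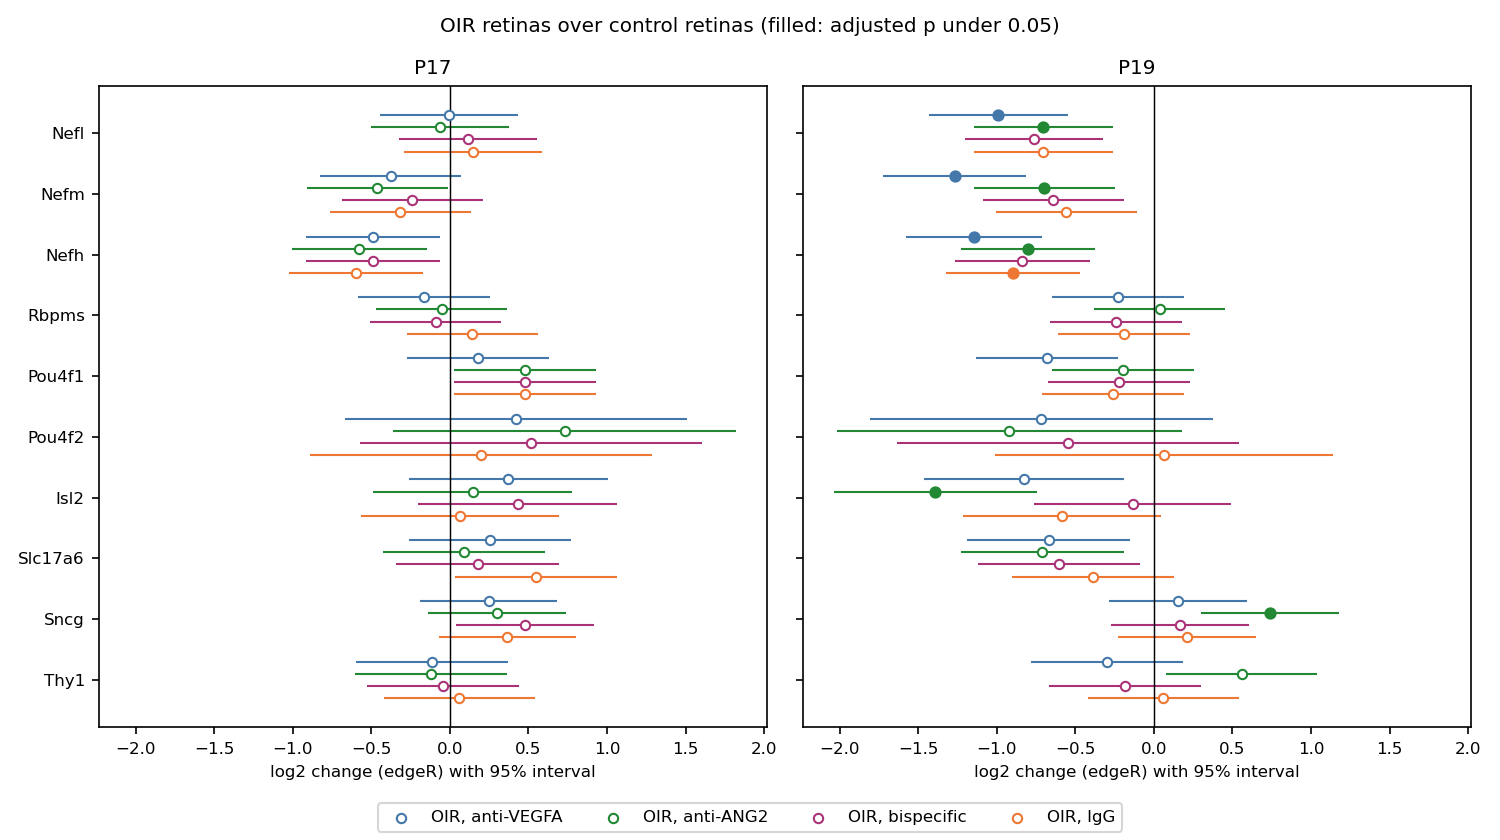
Points are edgeR log2 changes of each OIR group over control retinas of the same age (4 against 4 retinas), with 95% intervals, and filled points have an adjusted p under 0.05. At P19 the changes of Nefh run from -1.15 with anti-VEGFA to -0.80 with anti-ANG2, while Sncg is above 0 in all 4 OIR groups, called with anti-ANG2, and in TPM below 0 with anti-VEGFA, the bispecific antibody and IgG (-0.12, -0.02 and -0.04).

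Ratios of TPM within a retina do not depend on the library's scaling. At P19 the ratio of Nefh to Sncg, a soluble synuclein abundant in ganglion cells, was 0.0265 to 0.0669 in the 16 OIR retinas and 0.0803 to 0.109 in the 4 control retinas. The ratio of Nefl to Sncg was 0.221 to 0.665 in OIR and 0.705 to 0.843 in control retinas at P19, and that of Nefh to Rbpms was 1.11 to 2.12 in OIR and 2.14 to 2.95 in control retinas. These 3 of 10 ratios computed did not overlap at P19, that of Nefh to Rbpms only narrowly, and overlapped at P17. Sncg varied little in TPM, with a highest retina 1.72 times the lowest, so ratios to it largely repeat the TPM of the other gene. The ratios of Nefm, Isl2, Slc17a6 and Thy1 to Sncg overlapped at both ages, that of Nefm at P19 with 0.0292 to 0.124 in OIR and 0.115 to 0.15 in control retinas. The ratio of Nefh to Slc17a6 was 1.51 to 2.77 in OIR and 3.08 to 4.77 in control retinas at P17, and overlapped at P19. The ratios among neurofilaments went the other way in time: Nefh to Nefl was 0.0939 to 0.155 in OIR and 0.156 to 0.185 in control retinas at P17 without overlap, and overlapped at P19, at 0.0881 to 0.146 in OIR and 0.114 to 0.139 in control retinas. The ratio of Nefm to Nefl did likewise, at 0.141 to 0.191 in OIR and 0.198 to 0.24 in control retinas at P17. These ratios are a description, chosen after the levels were seen, and were not tested. How often ratios of other gene pairs separate so is not given here, so these counts do not set the 10 genes apart.

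**Figure D3:**
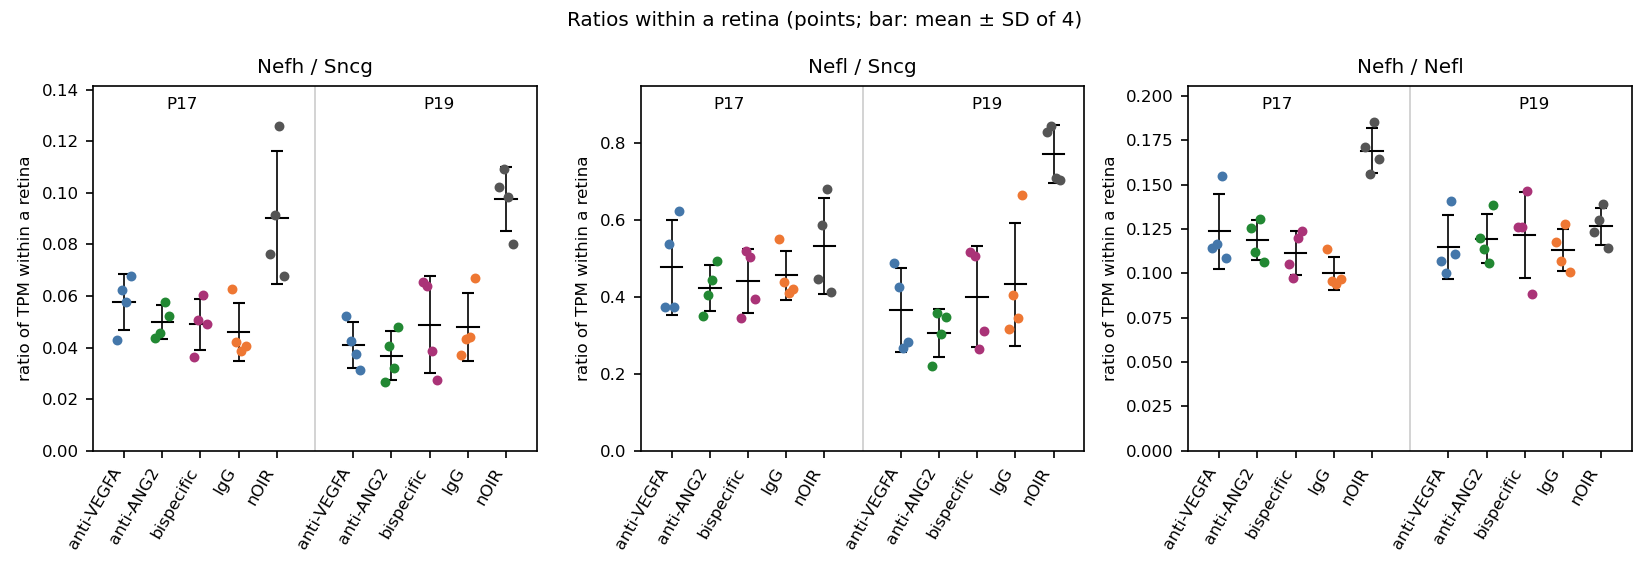
Each point is the ratio of TPM of 2 genes within 1 retina, on linear axes from 0, with the mean and SD of 4 retinas as bars. The 16 OIR retinas lie below the 4 control retinas for Nefh over Sncg and Nefl over Sncg at P19, and for Nefh over Nefl at P17.

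Of the transcription factors, Isl2, a LIM homeodomain factor present in a subset of ganglion cells, was lower with anti-ANG2 at P19. Its TPM at P19 were 1.84, 1.97, 2.29 and 2.23 with anti-ANG2, against 4.79, 4.41, 4.85 and 7.68 with IgG and 6.63, 11.4, 11.3 and 7.10 in control retinas. The 4 anti-ANG2 retinas were below every other retina of that age, the next being an anti-VEGFA retina at 2.50 TPM, and they varied little. Over control retinas the Isl2 change of -1.39 (log2, adjusted p = 0.0025) was called without any 1 library, without the 3 libraries of unusual composition (adjusted p = 0.005) and without the 8 libraries with both Xist and Y-linked RNA (0.043). Over IgG it was -0.81 ± 0.32 (SE; adjusted p = 0.25) in edgeR and was called, of the alternatives tried, only in TPM, at -1.04 (adjusted p = 0.034), where the median of all genes was -0.19. The level is low, at 4.28 ± 0.728 CPM with anti-ANG2 and 11.2 ± 3.34 CPM in control retinas.

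Pou4f1 and Pou4f2, the POU domain factors also known as Brn3a and Brn3b that act in ganglion cell differentiation and survival, were called in no comparison in edgeR. Pou4f1 at P17 had log2 changes over control of 0.48 with IgG, 0.48 with anti-ANG2 and 0.48 with the bispecific antibody, each with an unadjusted p under 0.05 and an adjusted p of at least 0.29. At P19 Pou4f1 stood at 5.93, 4.19, 2.47 and 2.83 TPM with anti-VEGFA, against 7.24, 7.05, 6.37 and 7.35 TPM in control retinas, without overlap, a log2 change of -0.68 ± 0.22 (SE; adjusted p = 0.071). DESeq2 called it (adjusted p = 0.016), and so did edgeR without anti-VEGFA replicate 1 (0.011). That retina was the highest of its group, so leaving it out favours a call. Pou4f2 ranged from 0.32 to 4.36 TPM over the 40 retinas, and its 95% interval over control was -1.81 to 0.38 (log2) with anti-VEGFA at P19, the widest of the 10 genes in that comparison.

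Rbpms, an RNA-binding protein used as a marker of ganglion cells as a whole, was called in no comparison. Its TPM at P19 averaged 26.5 ± 5.56 with anti-VEGFA, 28.7 ± 6.90 with anti-ANG2, 31.1 ± 9.77 with the bispecific antibody and 31.6 ± 5.41 with IgG, against 40.6 ± 4.69 in control retinas. In TPM 14 of 16 OIR retinas were below the lowest control retina, in CPM 7 of 16. Its log2 change over control at P19 with IgG was -0.19 ± 0.21 (SE; adjusted p = 0.8), with a 95% interval of -0.61 to 0.23. Its sign at P17 with IgG and at P19 with anti-ANG2 differed between edgeR (0.14 and 0.04) and TPM (-0.32 and -0.52).

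Slc17a6, the vesicular glutamate transporter VGLUT2 of ganglion cell terminals, had at P19 TPM of 24.5, 17.6, 12.2 and 14.3 with anti-VEGFA, 10.2, 16.8, 9.92 and 16.1 with anti-ANG2, 23.9, 26.7, 14.3 and 5.91 with the bispecific antibody and 16.8, 20.96, 16.3 and 29.2 with IgG, against 32.3, 36.6, 33.5 and 22.03 in control retinas. The anti-ANG2 retinas did not overlap the control retinas in TPM and did in CPM. It was not called in edgeR, at -0.71 ± 0.26 (SE; adjusted p = 0.068) with anti-ANG2 and -0.67 ± 0.26 (SE; adjusted p = 0.13) with anti-VEGFA. With anti-ANG2 it was called by DESeq2 (adjusted p = 0.029), in TPM (log2 change -1.19, adjusted p = 0.0012), and in edgeR without control replicate 4 (0.042) or anti-ANG2 replicate 2 (0.043), and with anti-VEGFA without anti-VEGFA replicate 1 (0.047). In TPM control replicate 4 was the lowest control retina, and the antibody retinas left out were the highest of their groups. Leaving them out thus favours a call.

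Sncg and Thy1 were the 2 genes called higher in any comparison. Sncg, gamma-synuclein, had the narrowest range of the 10 in TPM, the highest retina being 1.72 times the lowest. At P19 it stood at 1256, 1162, 893 and 1062 TPM with anti-ANG2 and 929, 1041, 1239.8 and 993 TPM in control retinas, which overlapped. In CPM it stood at 737, 529, 397 and 369.7 with anti-ANG2 and 258, 310.2, 369 and 281 in control retinas, which did not. The edgeR call with anti-ANG2 (log2 change 0.74, adjusted p = 0.021) thus depended on the scale, at 0.05 in TPM (adjusted p = 0.78), where the median of all genes was -0.31. It was also lost without control replicate 1 or 4 or anti-ANG2 replicate 1 or 2 (adjusted p between 0.05 and 0.21) and without the 3 libraries of unusual composition (0.13), and was kept without the 8 libraries with both Xist and Y-linked RNA (0.019).

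Thy1, a surface glycoprotein of ganglion cells and of T cells, had at P19 CPM of 37.6, 39.4, 38.7 and 22.7 with anti-ANG2 and 20.7, 26.95, 26.2 and 20.1 in control retinas, with 3 anti-ANG2 retinas above all control retinas and the other within their range. Its log2 change over control was 0.56 ± 0.24 (SE; adjusted p = 0.14) with anti-ANG2 and was not called. Its adjusted p was 0.047 without anti-ANG2 replicate 4. That retina is the one within the control range, so leaving it out favours a call. In TPM the change was -0.05. The 5 T cell markers summed to at most 0.766 CPM in any library, with Trac at 0 in all 40 and Cd3e at 0 in 32.

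Isl2 and Sncg were called in opposite directions in the same anti-ANG2 retinas at P19, and their promoter windows, from RefSeq on GRCm38.p6, are shown for that reason. The RefSeq windows run from 250 bases before to 50 after the start, and each is printed up to its first base in a GENCODE exon of the gene. The Isl2 window lies within an intron of a longer Isl2 transcript. Of the 10 genes 5 were matched in the table (Slc17a6, Pou4f2, Isl2, Sncg and Pou4f1). Isl2 is at chr9:55540899-55541147 on the plus strand and Sncg at chr14:34374790-34374919 on the minus strand. Capitals mark a cyclic AMP response element (TGACGTCA, searched on both strands), found at base 240 of the Isl2 window and in 1.79% of the 32851 full windows of 300 bases in the table. Neither that element nor TATAAA, present in 13.6% of full windows, was found in the printed Sncg window.
Isl2: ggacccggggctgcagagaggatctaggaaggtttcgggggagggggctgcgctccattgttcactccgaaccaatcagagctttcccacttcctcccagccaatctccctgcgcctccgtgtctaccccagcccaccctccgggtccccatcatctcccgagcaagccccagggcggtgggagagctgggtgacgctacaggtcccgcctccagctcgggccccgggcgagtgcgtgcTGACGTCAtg
Sncg: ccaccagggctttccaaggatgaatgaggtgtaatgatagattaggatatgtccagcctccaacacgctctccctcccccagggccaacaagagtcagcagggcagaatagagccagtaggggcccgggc

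**Figure D4:**
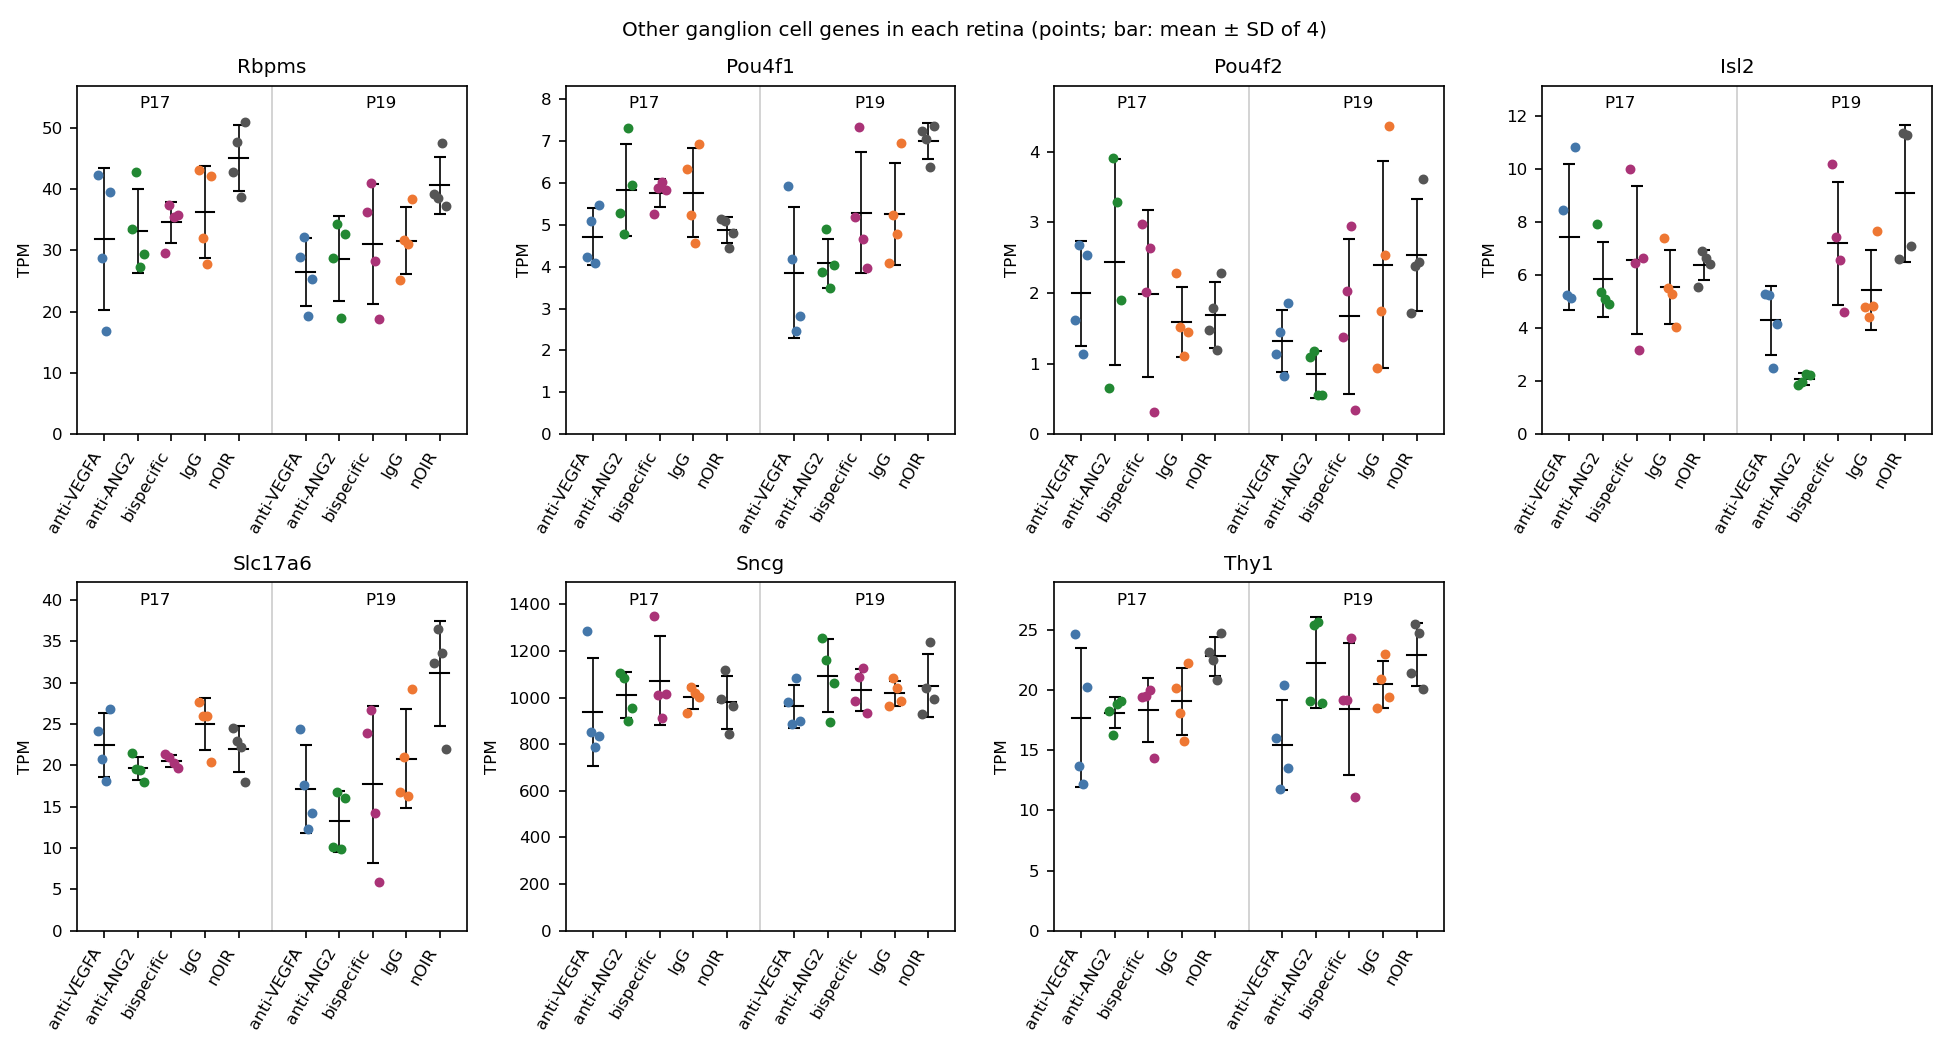
Each point is 1 retina, with TPM on a linear axis from 0 in a panel per gene, groups along the other axis at P17 and then P19, and the mean and SD of 4 retinas as bars. At P19 Isl2 lies at 1.84 to 2.29 TPM with anti-ANG2 and 6.63 to 11.4 TPM in control retinas, while Sncg lies at 886 to 1256 TPM in OIR and 929 to 1240 TPM in control retinas.

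Set against IgG-injected OIR retinas, the antibodies changed none of the 10 genes past the threshold. All antibody comparisons at an age share the same 4 IgG retinas. At P17, 0 of 10 genes were called with anti-VEGFA, anti-ANG2 or the bispecific antibody, 0 had an unadjusted p under 0.05, and 0% of all genes were called in each of these 3 comparisons. DESeq2 also called 0 of the 10. Over all genes, 1128, 1795 and 921 had an unadjusted p under 0.05 with anti-VEGFA, anti-ANG2 and the bispecific antibody at P17, and DESeq2 called 2, 19 and 16. At P19, 0 of 10 were called with anti-VEGFA (0% of all genes, with 2615 at an unadjusted p under 0.05 and 38 called by DESeq2), anti-ANG2 (0.0979%) and the bispecific antibody (0.0468%), with 1, 3 and 0 of the 10 at an unadjusted p under 0.05, and DESeq2 called 0 of the 10 in each. All 10 log2 changes with anti-VEGFA at P19 were below 0, with a median of -0.28 against 0.03 over all genes. Nefm had the largest of those with an unadjusted p under 0.05, at 121 ± 39.3 CPM with anti-VEGFA and 198 ± 42.9 CPM with IgG, a log2 change of -0.71 ± 0.22 (SE; adjusted p = 0.31), and the groups overlapped. With anti-ANG2 the 3 genes were Isl2, at -0.81, Sncg, at 0.53 ± 0.22 (SE; adjusted p = 0.28), and Thy1, at 0.50 ± 0.24 (SE; adjusted p = 0.37). For Nefh the 95% interval of the log2 change over IgG at P19 was -0.68 to 0.18 with anti-VEGFA, -0.33 to 0.52 with anti-ANG2 and -0.37 to 0.49 with the bispecific antibody, so changes within those bounds were not resolved.

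**Figure D5:**
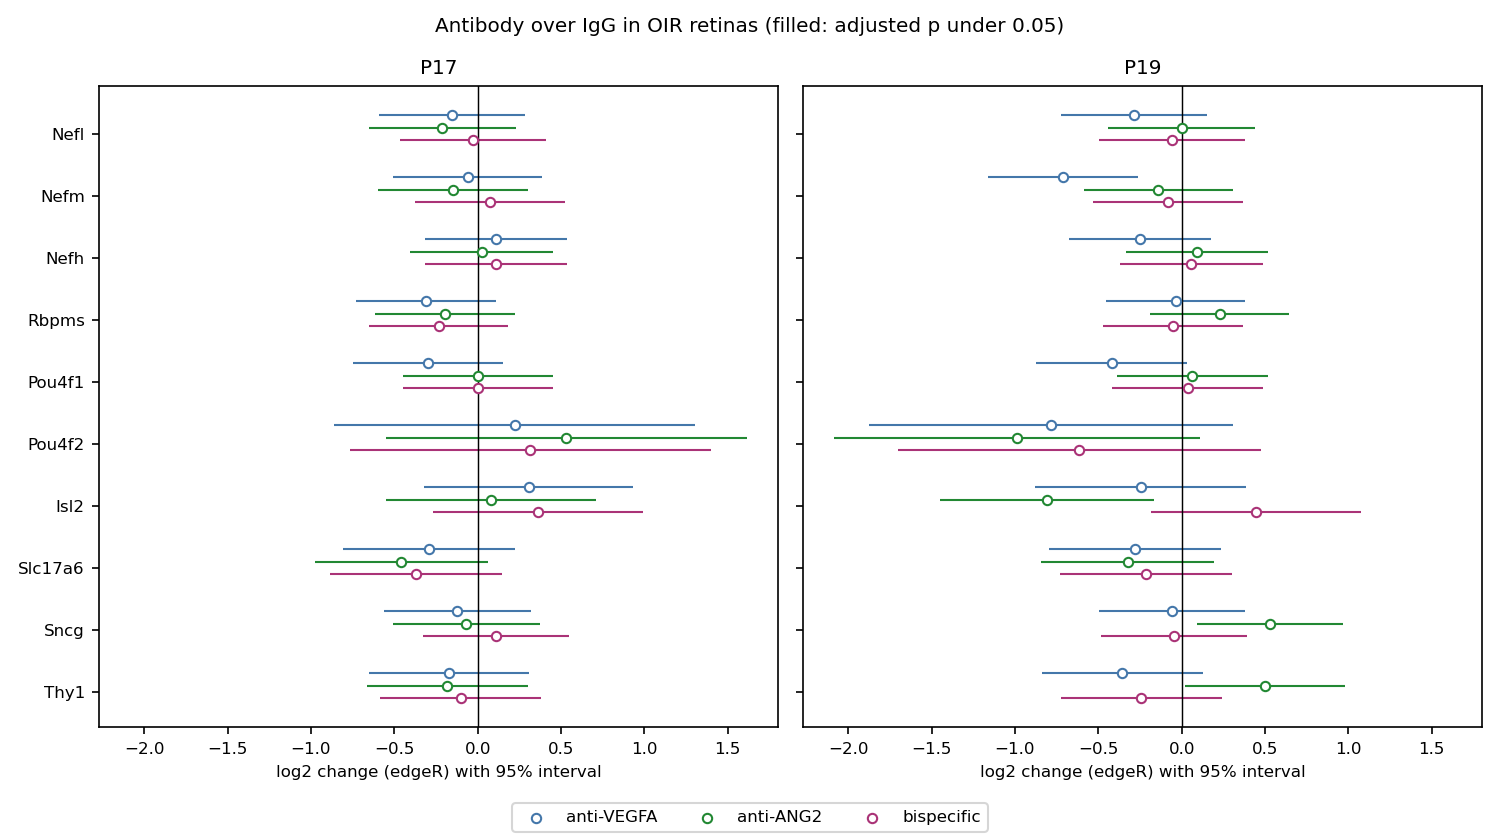
Points are edgeR log2 changes of each antibody over IgG in OIR retinas of the same age (4 against 4 retinas), with 95% intervals, and open points have an adjusted p of 0.05 or more. No point is filled, and the Nefm interval with anti-VEGFA at P19, -1.16 to -0.26, and the Isl2 interval with anti-ANG2 at P19, -1.45 to -0.17, lie below 0.

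Between antibodies 0 of the 10 genes were called in edgeR at P17 (0% of all genes in each of 3 comparisons) or at P19, where 0.0553% of all genes were called for the bispecific over the anti-VEGFA antibody, 0% for the bispecific over the anti-ANG2 antibody and 0.238% for anti-VEGFA over anti-ANG2. At P19 3, 3 and 4 of the 10 had an unadjusted p under 0.05 in these comparisons, and at P17 0 in each. DESeq2 called 1 of the 10 for anti-VEGFA over anti-ANG2 at P19, where it called 1076 of all genes, and 0 in the others. At P19 Isl2 was higher with the bispecific antibody than with anti-ANG2 in every retina, at 10.2, 7.44, 6.57 and 4.62 TPM with the bispecific antibody and 1.84, 1.97, 2.29 and 2.23 TPM with anti-ANG2, a log2 change of 1.26 ± 0.32 (SE; adjusted p = 0.11) in edgeR and 1.37 in TPM (adjusted p = 0.048). Thy1 had a log2 change of -0.86 ± 0.24 (SE; adjusted p = 0.091) for anti-VEGFA over anti-ANG2, called by DESeq2 (adjusted p = 0.021) and, without anti-ANG2 replicate 4, by edgeR (0.016). For the bispecific over the anti-ANG2 antibody its adjusted p without that retina was 0.037. That retina had the lowest Thy1 CPM of the anti-ANG2 group at P19, so leaving it out favours a call. The differences of the antibody effects between the ages were called for 0 of the 10 genes, and for 0% of all genes, for each antibody. With anti-VEGFA, anti-ANG2 and the bispecific antibody, 1, 1 and 0 of the 10 had an unadjusted p under 0.05, and DESeq2 called 0 of the 10.

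Between the ages, all 10 genes had a log2 change above 0 in control retinas (P19 over P17; in TPM Rbpms was at -0.14), with a median of 0.54 against -0.02 over all genes, and 0 were called, where 0.0979% of all genes were, and 4 had an unadjusted p under 0.05. Nefl stood at 771, 877, 878 and 699 TPM at P19 and 442, 657, 573 and 396 TPM at P17, without overlap, a log2 change of 0.80 ± 0.22 (SE; adjusted p = 0.19). It was called by DESeq2 (adjusted p = 0.011) and by limma-voom with quality weights (0.0053). Pou4f1, at 0.68 ± 0.22 (SE; adjusted p = 0.4), did not overlap between the ages either. In OIR the same comparison called 0 of 10 with IgG (0.00851% of all genes), 0 with anti-VEGFA (0%) and 0 with the bispecific antibody (0.0298%), with 0, 1 and 0 at an unadjusted p under 0.05 and 0 called by DESeq2 in each. With anti-ANG2 it called 2, Thy1 at 0.84 ± 0.24 (SE; adjusted p = 0.032) and Sncg at 0.71 ± 0.22 (SE; adjusted p = 0.047), both higher at P19, where 4.83% of all genes were called and 3.32% were called higher. In TPM these 2 changes were 0.27 and 0.11 (adjusted p of 0.35 and 0.57), where the median of all genes was -0.3. Both calls were lost without anti-ANG2 P17 replicate 1, 2, 3 or 4 or anti-ANG2 P19 replicate 1 or 2, and that of Thy1 also without P19 replicate 3 (adjusted p of 0.059 to 0.32 for Sncg and 0.067 to 0.12 for Thy1). Without the 3 libraries of unusual composition Sncg was at 0.48 (adjusted p = 0.23) and Thy1 at 0.80 (0.086), and without the 8 libraries with both Xist and Y-linked RNA at 0.81 (0.058) and 0.78 (0.12). Isl2 was lower at P19 than at P17 in every anti-ANG2 retina, at -0.87 ± 0.32 (SE; adjusted p = 0.11) in edgeR, and was called lower by DESeq2 (-0.85, adjusted p = 0.042) and in TPM (-1.13, adjusted p = 0.0073).

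Within groups, all 45 pairs of the 10 genes had a Pearson's r above 0, and 30 had an adjusted p under 0.05 by both coefficients, none of them among the 9 pairs with Pou4f2, whose lowest r was 0.13, with Isl2 (rho = 0.19; permutation, adjusted p of 0.58 and 0.3). The correlations use deviations of log2 CPM from the group mean over 40 retinas, which share each library's scaling factor, with p-values from 100000 permutations within groups, adjusted over 45 pairs. How often pairs of other genes correlate so within groups was not computed, so these counts do not set the 10 genes apart from others. Nefl and Nefh had Pearson's r = 0.85 and Spearman's rho = 0.85 (permutation, both adjusted p = 0.00011), with r = 0.83 within P17, 0.87 within P19 and 0.85 without the 2 retinas farthest from the median. Nefh and Slc17a6 had r = 0.85 and rho = 0.79 (permutation, adjusted p of 0.00011 and 0.00018), with 0.71 within P17, 0.88 within P19 and 0.79 without the 2 farthest retinas. Sncg and Thy1 had r = 0.70 and rho = 0.61 (permutation, adjusted p of 0.0009 and 0.0018), with 0.75 within P17, 0.64 within P19 and 0.59 without the 2 farthest retinas. Nefh and Sncg were less alike, at r = 0.40 and rho = 0.46 (permutation, adjusted p of 0.022 and 0.014), with 0.52 within P17, 0.40 within P19 and 0.47 without the 2 farthest retinas.

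Over all 40 libraries, group differences included, the log2 CPM of Nefh was most like that of Nefm (r = 0.89) and Nefl (0.82) among the 10 genes and least like that of Sncg (0.05). Among other genes the most alike were Cplx1 (r = 0.85), Nrsn1 (0.81), Sparcl1 (0.81), Rbpms2 (0.79) and Cend1 (0.79). For Rbpms the most alike were Snrpn (0.69), Stmn2 (0.68), Vsnl1 (0.68), Bcam (0.66) and Rgs4 (0.64). These are descriptions over libraries of 10 groups.

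In a list of 20 further ganglion cell genes, 0 were called in IgG-injected OIR over control retinas at either age. The list had medians of -0.11 at P17 and -0.23 at P19, against -0.05 over all genes. At P19 4 of 20 were lower with anti-VEGFA, 2 with anti-ANG2 and 1 with the bispecific antibody, where 2.39%, 3.65% and 0.111% of all genes were called lower, and 0 were higher. Of these calls 4, 2 and 1 remained without the 3 libraries of unusual composition, and 0, 2 and 1 without the 8 libraries with both Xist and Y-linked RNA. Named after their values were seen, these were Chrna6, Chrnb3, Rbpms2 and Tubb3 with anti-VEGFA, Chrna6 and Chrnb3 with anti-ANG2, and Chrna6 with the bispecific antibody. Chrna6 and Chrnb3 are nicotinic receptor subunits. Chrna6 stood at 133 ± 39.8 CPM with anti-VEGFA, 121 ± 17.2 CPM with anti-ANG2 and 118 ± 29.4 CPM with the bispecific antibody, against 228 ± 35.4 CPM in control retinas (SD, n = 4 each; adjusted p of 0.0088, 0.00043 and 0.0037). Isl1, a LIM homeodomain factor of ganglion, bipolar and amacrine cells, was the only listed gene called over IgG, at 94.2 ± 12.6 CPM with anti-ANG2 and 168 ± 12.6 CPM with IgG at P19 (log2 change -0.84, adjusted p = 0.025), a call that was lost without the 3 (-0.76, adjusted p = 0.12) or the 8 libraries (-0.83, adjusted p = 0.19).

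In a list of 16 genes of axons and the neuronal cytoskeleton, 0 were called in IgG-injected OIR over control retinas, while at P19 4 were lower with anti-VEGFA (Ina, Kif5a, Map1a and Tubb4a) and 4 with anti-ANG2 (Ina, Kif5a, Nrcam and Sptbn4), named after their values were seen. Of all genes 2.39% with anti-VEGFA and 3.65% with anti-ANG2 were called lower. Ina, alpha-internexin, assembles with the neurofilament chains, and it stood at 85.7 ± 29.5 CPM with anti-VEGFA and 116 ± 21.9 CPM with anti-ANG2, against 182 ± 27.6 CPM in control retinas (log2 changes -1.08 and -0.65, adjusted p of 0.0021 and 0.031). Of the 4 and 4 calls, 4 and 2 remained without the 3 libraries and 0 and 1 without the 8 libraries. The list medians were -0.46 with anti-VEGFA and -0.52 with anti-ANG2, against 0.02 and -0.06 over all genes.

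In a list of 15 genes of the injury response of ganglion cells, 14 were measured and 2 rose in IgG-injected OIR over control retinas at P17, where 2.11% of all genes were called higher. Both calls were kept without the 3 libraries of unusual composition (adjusted p of 0.0068 for Atf3 and 0.037 for Tnfrsf12a) and lost without the 8 libraries with both Xist and Y-linked RNA (0.4 and 0.2). Atf3, a stress-induced transcription factor, stood at 10.7 ± 5.18 CPM with IgG and 3.14 ± 1.40 CPM in control retinas (log2 change 1.77, adjusted p = 0.015), with groups that overlapped. Tnfrsf12a, the receptor Fn14, stood at 13.5 ± 8.93 CPM with IgG and 4.92 ± 0.991 CPM in control retinas (log2 change 1.46, adjusted p = 0.012), without overlap. At P19 with IgG neither was called (adjusted p of 0.14 and 0.15). Atf3 was also called with anti-ANG2 at P17 and Tnfrsf12a with the bispecific antibody at P17, where 208 and 189 of the 23495 genes were called higher. At P19 2 listed genes, Ddit3 and Gadd45a, were called higher with anti-ANG2, where 7.06% of all genes were. They were named after their values were seen, and Gadd45a was lost without the 8 libraries (adjusted p = 0.18). Of the 2 P17 calls the bispecific one was lost without the 3 libraries and both were lost without the 8. None of these 4 genes is specific to ganglion cells.

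Markers of neighbouring cells and tissue moved with some of these groups. Of 14 amacrine cell markers 1 was lower with IgG at P19, where 0.0979% of all genes were called lower. It was Slc17a8, the transporter VGLUT3, at 3.20 ± 0.554 CPM with IgG and 9.73 ± 0.997 CPM in control retinas (adjusted p = 0.045), a call lost without the 8 libraries (0.17). At P19 4 were lower with anti-VEGFA and 6 with anti-ANG2, where 2.39% and 3.65% of all genes were called lower. Of these 4 and 6, 4 and 2 remained without the 3 libraries and 0 and 2 without the 8. At P19 the summed cone markers ran from 2767 to 4756 CPM with anti-ANG2 and 2166 to 3386 CPM with anti-VEGFA. Control retinas ran from 1894 to 2062 CPM, below both, while the IgG and bispecific retinas overlapped them. The summed Mueller glia markers at P19 ran from 2219 to 2369 CPM with IgG, against 1641 to 1833 CPM in control retinas, without overlap. The other OIR groups overlapped the control retinas in these glia markers. Of 6 horizontal cell markers 0 were called over control retinas at P19 in any OIR group, and their summed level ran from 224 to 303 CPM with anti-VEGFA, 205 to 255 CPM with anti-ANG2, 112 to 221 CPM with the bispecific antibody and 228 to 284 CPM with IgG, against 215 to 223 CPM in control retinas. The summed oligodendrocyte markers, which would come with optic nerve tissue, ran at P19 from 96.5 to 756 CPM with anti-VEGFA, 66.6 to 108 CPM with anti-ANG2 and 148 to 279 CPM with IgG, against 72.3 to 702 CPM in control retinas. At P17 with IgG, where 2.11% of all genes were called higher, 1 of 4 measured astrocyte markers (Gfap), 1 of 6 Mueller glia markers (Vim), 2 of 6 cone markers (Gnat2 and Pde6h), 3 of 8 pigment epithelium markers (Rgr, Rpe65 and Ttr) and 1 of 8 lens markers (Cryaa) were called higher, of which Vim, Pde6h, Ttr and Cryaa were lost without the 3 libraries and all but Gfap without the 8. The summed pigment epithelium markers at P17 ran from 401 to 1588 CPM in OIR retinas, against 219 to 424 CPM in control retinas. The part of these cells and tissues in the neurofilament values was not tested, except that in a fit with RNA of pigment epithelium and of lens as 2 covariates the counts of the 10 genes called over control at P19 were 1 with IgG, 3 with anti-VEGFA and 6 with anti-ANG2. How many of all genes that fit called at P19 is not given here.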

How the data were processed

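Whole mouse retinas were sequenced, 1 per library, with SMART-Seq mRNA and Nextera XT libraries, per the labels' protocols. The authors deposited RSEM expected counts and TPM per gene. STAR 2.7.10a, RSEM 1.3.3 and GRCm38.p4 are named in the submitters' processing notes, with an annotation that is not stated in them. The protocols mention neither strand nor molecular identifiers.

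Expected counts were rounded (15.7% of the values above 0 were not whole) and tested in R 4.3.3 with edgeR 4.0.16 (TMM, filterByExpr, robust quasi-likelihood) over all 40 libraries in 10 groups, for 29 comparisons, with Benjamini-Hochberg adjustment over 23495 genes (34662 without the filter). limma 3.58.1 on log2(TPM + 1) or log2(TPM + 0.1), limma-voom, DESeq2 1.42.0, RLE factors, a replicate block, 3 covariate fits and fits without single libraries were alternatives. Fits without 3 or 8 libraries were chosen after seeing the data. Gene positions are from GENCODE vM21. All 10 genes were reported in every comparison. From the companion lists the genes called against control with IgG, or against IgG, were named, and for Nefh and Rbpms the 5 most alike genes of at least 5 mean CPM. Some list genes called against control only with an antibody were also named, after their values were seen. The members and lists were chosen with earlier results of these data known. Some results on marker genes of other cell types are not reported here.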

Additional observations from a re-analysis of the deposited data

Results flagged for a closer look

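In 6 of 100 groups of 4 retinas (10 genes in 10 groups) 1 retina lay far from the other 3 in CPM, by Dixon's criterion at 95%, which chance meets in about 1 group in 20. For Nefl, IgG P17 replicate 4 stood at 1060 CPM, against 1160 to 1170 CPM in the other retinas of its group. For Nefh, bispecific P17 replicate 1 stood at 168 CPM, against 138 to 144 CPM. For Sncg, anti-VEGFA P17 replicate 1 stood at 478 CPM, against 226 to 246 CPM, and bispecific P19 replicate 3, a library of unusual composition, at 274 CPM, against 354 to 370 CPM. For Thy1, IgG P17 replicate 4 stood at 25.7 CPM, against 20.1 to 21.1 CPM, and anti-ANG2 P19 replicate 4 at 22.7 CPM, against 37.6 to 39.4 CPM.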

How the results depend on the processing

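In edgeR the number of the 10 genes called was, at P19 over control, 3 with anti-VEGFA, 5 with anti-ANG2, 0 with the bispecific antibody and 1 with IgG, with 2 for anti-ANG2 P19 over P17 and 0 elsewhere. Leaving out 1 library gave 3 to 5 with anti-VEGFA, 2 to 5 with anti-ANG2, 0 to 2 with the bispecific antibody, 0 to 2 with IgG, 0 to 2 for anti-ANG2 P19 over P17, and 0 to 1 for the bispecific or the anti-VEGFA antibody over anti-ANG2 at P19. Such fits called 289 to 1512 of all genes with anti-VEGFA and 1357 to 3242 with anti-ANG2 over control at P19. They called 42 to 414 with the bispecific antibody, 66 to 410 with IgG and 67 to 2304 for anti-ANG2 P19 over P17. The last 2 comparisons had 0 to 709 and 0 to 1356. DESeq2 called 5 with anti-VEGFA, 6 with anti-ANG2, 2 with the bispecific antibody and 2 with IgG at P19, 3 for anti-ANG2 P19 over P17, 1 with IgG at P17, 1 between ages in controls (P19 over P17) and 1 for anti-VEGFA over anti-ANG2 at P19. It called 1062 of all genes with IgG at P17, against 555 in edgeR. For anti-VEGFA over anti-ANG2 at P19 it called 1076, against 56. Over 13 alternative fits, all genes called over control at P19 ran from 11 to 2067 with anti-VEGFA and from 180 to 6634 with anti-ANG2. They ran from 15 to 823 with the bispecific antibody and from 63 to 1122 with IgG. Where no count of all genes is given for a fit, the count of the 10 genes has no background here. Added calls among the 10 genes were not set against such rises in all genes, so they do not set the 10 genes apart. On log2(TPM + 1), and likewise with 0.1 added, 6 were called with anti-VEGFA, 7 with anti-ANG2 (all lower), 2 with the bispecific antibody and 2 with IgG at P19, 1 with IgG at P17, and 1 each for anti-ANG2 over IgG at P19, the bispecific antibody over anti-ANG2 at P19 and anti-ANG2 P19 over P17, the last being Isl2, lower, with Thy1 and Sncg lost. With 0.1 added, 2067 of all genes were called with anti-VEGFA and 6634 with anti-ANG2 over control at P19, against 1111 and 2516 in edgeR. For anti-ANG2 over IgG at P19 it was 847, against 23, and for anti-ANG2 P19 over P17 3994, against 1135. Limma-voom called 1 with the bispecific antibody, 2 with IgG at P19 and 1 between ages in controls. It added Pou4f1 with anti-VEGFA (adjusted p = 0.038) and Slc17a6 with anti-ANG2 (0.05 after rounding) over control at P19. Of all genes it called 1122 with IgG at P19, against 216 in edgeR, and 192 between ages in controls, against 23. RLE factors gave 1 with the bispecific antibody at P19. Fits of the compared groups only gave 3 with IgG at P19 and 1 at P17. They added Slc17a6 with anti-VEGFA (adjusted p = 0.048) and with anti-ANG2 (0.022) over control at P19. The Y-linked covariate gave 0 with IgG at P19 and 0 for anti-ANG2 P19 over P17. The mitochondrial covariate gave 0 with anti-ANG2, 1 with the bispecific antibody and 2 with IgG at P19, and 0 for anti-ANG2 P19 over P17, with 180, 178, 709 and 0 of all genes called.

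Without the 3 libraries of unusual composition Pou4f1 was also called with anti-VEGFA over control at P19 (adjusted p = 0.032). The counts in that fit were 3 with anti-ANG2 and 2 with IgG at P19, and 0 for anti-ANG2 P19 over P17. Without the 8 libraries with both Xist and Y-linked RNA they were 0 with anti-VEGFA, 2 with anti-ANG2 and 0 with IgG at P19, and 0 for anti-ANG2 P19 over P17, from fewer samples, while 11, 1437, 63 and 468 of all genes were called, against 1111, 2516, 216 and 1135 with all libraries. Replicate numbers were not found to pair the retinas: in 0 of 25 comparisons did all same-numbered pairs correlate above 0.1 (9 of 100 pairs did), and the replicate block gave 2 calls with the bispecific antibody over control at P19 in place of 0. That block also added Pou4f1 with anti-VEGFA (adjusted p = 0.046) and Slc17a6 with anti-ANG2 (0.029) over control at P19. Of 6410 recomputed values of single genes, 601 changed sign, none of them called in either fit, with a median size of 0.06 and at most 0.56 (log2) in edgeR. Past the threshold, 68 values were gained and 64 lost. For causes not given by a setting's own construction, the cause was not tested. Depth limited Pou4f2 most.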
